A study of Mus musculus with 6 samples.

Results

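Vascular endothelial growth factor (VEGF) and the angiopoietins are the main secreted signals that endothelial cells read through their own receptor tyrosine kinases. The data described here are the transcripts of 10 genes of this system, chosen by name from the 32287 features of the count tables: the VEGF receptors Flt1, Kdr and Flt4, the co-receptors Nrp1 and Nrp2, the ligand Vegfa, the angiopoietin receptor Tek (Tie2) with its relative Tie1, and the ligands Angpt1 and Angpt2. All 10 were found in the tables; the rule itself uses no measured value, but the genes were proposed with earlier results of these data known. They were followed in cells of the cerebral microvasculature from 6 male mice aged 12 months, all untreated: 3 wild-type C57BL/6J mice (WT) and 3 mice carrying the TgApp ArcSwe transgene (labelled AppArcSwe), an Alzheimer's disease model that the study chose for its high load of cerebral amyloid angiopathy, which is amyloid deposited in vessel walls. The promoter that drives the transgene is not given in the sources used here, and the mouse App counts do not report on it, so genotype rests on the labels. Vessel fragments were captured on beads coated with CD31 antibody, digested to single cells and sequenced as 1 droplet library per mouse, so the mouse was the replicate.

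As background, Vegfa binds Flt1 (VEGFR1) and Kdr (VEGFR2). Kdr carries most of the growth and permeability signal, whereas Flt1 binds the ligand tightly, signals weakly and also has a soluble form that acts as a trap. Flt4 (VEGFR3) receives Vegfc and Vegfd and is best known in lymphatic vessels, and the neuropilins Nrp1 and Nrp2 hold VEGF at these receptors and also bind semaphorins. Angpt1, made mainly by cells around the vessel, activates Tek and keeps vessels quiet and tight. Angpt2 is released by endothelial cells at sites of remodelling and can oppose Angpt1, and Tie1 has no settled ligand of its own and acts as a partner of Tek. In the brain, VEGF signalling is known for maintaining the fenestrated capillaries of the choroid plexus and the circumventricular organs, which lack the blood-brain barrier.

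The libraries held 26436229 to 59161203 unique molecular identifiers (UMIs, each standing for a captured transcript molecule), and 44112 of 49059 barcodes passed the study's limits on detected genes and mitochondrial share. Libraries shared 0.138% to 0.550% of the barcodes of the smaller library of each pair. Cells were clustered without the 10 genes and without the 75 other genes of their pathway, and named from marker genes: 482 large arterial, 2364 arteriolar, 10091 capillary, 2824 venous capillary and 905 vein endothelial cells, 628 fenestrated endothelial cells led by Plvap and Esm1, 3257 smooth muscle cells, 338 pericytes, 4822 microglia and smaller groups. Barrier endothelial cells below are the 16666 cells of the 5 zones from large artery to vein. A further 6891 endothelial cells were assigned to no zone, and a cluster of 1586 cells with few UMIs and microglial leading genes was left unnamed; 1213 of those came from TgApp ArcSwe mouse 3 and 132 from WT mice. Levels are in CPM, the usual depth-normalized scale, on which the UMIs of a gene are set in proportion to all UMIs of the cell class in a mouse, given as lowest, median and highest over the 6 mice. UMI levels were compared for a gene between classes only, since these counts from transcript 3′ ends do not rank genes against each other and do not separate the soluble from the membrane-bound form of Flt1.

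On mm10, the genes lie on several chromosomes. Flt1 (ENSMUSG00000029648) lies at chr5:147561604-147726011 and Kdr (ENSMUSG00000062960) at chr5:75932827-75978458, both on the minus strand. Tek (ENSMUSG00000006386) lies at chr4:94739289-94874976 on the plus strand and Tie1 (ENSMUSG00000033191) at chr4:118471191-118490061 on the minus strand. Nrp1 (ENSMUSG00000025810) is at chr8:128358604-128503363 and Angpt2 (ENSMUSG00000031465) at chr8:18690263-18741562. Nrp2 (ENSMUSG00000025969) is at chr1:62703285-62818695, Flt4 (ENSMUSG00000020357) at chr11:49609263-49652739, Vegfa (ENSMUSG00000023951) at chr17:46016993-46032369 and Angpt1 (ENSMUSG00000022309) at chr15:42424723-42676977.

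Promoter sequences are shown for 4 receptors with unlike zone patterns, picked after their levels were seen. Other members, Nrp1 among them, differed more between zones than Tie1 did. Kdr was low in arteries, and Nrp2 was low in arteries and high in veins. Of the partners Tek and Tie1, Tek alone kept a nearly even level along the barrier vessels. Each sequence is the 250 bases before the RefSeq start on GRCm38.p6, written 5′ to 3′ on the strand of the gene. Capitals mark the letters GGAAG or its reverse complement CTTCC. This is a longer form of the GGAA core that Ets factors, common in endothelial promoters, are known to read. GGAA or TTCC without the added base was neither marked nor counted, and the Nrp2 and Tek windows hold such matches.
Kdr, chr5:75978456-75978705, minus strand: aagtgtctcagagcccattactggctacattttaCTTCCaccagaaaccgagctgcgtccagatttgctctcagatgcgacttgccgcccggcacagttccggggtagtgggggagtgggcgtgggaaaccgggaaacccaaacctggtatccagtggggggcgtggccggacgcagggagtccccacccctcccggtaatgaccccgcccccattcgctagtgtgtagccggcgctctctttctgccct
Nrp2, chr1:62703067-62703316, plus strand: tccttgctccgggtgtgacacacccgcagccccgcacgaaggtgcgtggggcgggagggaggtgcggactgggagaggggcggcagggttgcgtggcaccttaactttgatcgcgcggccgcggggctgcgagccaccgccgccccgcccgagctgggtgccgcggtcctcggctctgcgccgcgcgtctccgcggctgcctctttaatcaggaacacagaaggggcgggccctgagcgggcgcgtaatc
Tek, chr4:94739039-94739288, plus strand: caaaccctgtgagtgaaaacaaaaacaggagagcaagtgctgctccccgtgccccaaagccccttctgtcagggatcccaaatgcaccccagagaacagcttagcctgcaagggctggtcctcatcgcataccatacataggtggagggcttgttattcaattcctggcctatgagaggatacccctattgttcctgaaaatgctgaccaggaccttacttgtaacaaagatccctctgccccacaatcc
Tie1, chr4:118489850-118490099, minus strand: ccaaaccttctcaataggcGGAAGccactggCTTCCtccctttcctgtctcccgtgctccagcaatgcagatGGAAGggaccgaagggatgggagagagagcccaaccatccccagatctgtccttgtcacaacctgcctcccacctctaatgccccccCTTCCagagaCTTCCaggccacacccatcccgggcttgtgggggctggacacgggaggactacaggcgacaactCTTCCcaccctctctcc
The marked motif was read 6 times in the Tie1 window, 1 time in that of Kdr and 0 times in those of Nrp2 and Tek. Among the windows of the other members, it occurred 3 times for Flt1, 3 times for Nrp1, 1 time for Flt4 and 1 time in each of the Vegfa windows. Of 32851 promoters of the same length, 64.1% held it, with a median of 1 match and 7 of the 9 member windows did. GC content was 72.4% in the Nrp2 window and 51.2% in that of Tek. No window is shown for Angpt1 and Angpt2.

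The receptors divided into those that followed the arteriovenous axis and those that hardly did. Kdr, the main VEGF signalling receptor, was lowest in large arteries. Its level there was 4.99, 26.3 and 34.4 CPM (lowest, median and highest mouse), against 183, 231 and 277 in arterioles, 468, 538 and 601 in capillaries, 396, 460 and 499 in venous capillaries and 413, 471 and 686 in veins. Arterioles and large arteries lay below every capillary value, while capillary and vein could not be ordered, with capillary higher in 3 of 6 mice. Arterial endothelial cells (large arterial and arteriolar summed) were lower than capillary cells by a log2 difference of -1.44 (SE 0.050, edgeR adjusted p = 6.91e-18, lower in 6 of 6 mice), and venous cells by -0.15 (SE 0.035, adjusted p = 0.000697).

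Nrp2, the co-receptor linked to veins and lymphatics, had the largest rise towards the veins among the members. It stood at 0, 2.49 and 6.60 CPM in large arteries, where 3 mice had no UMI, at 4.74, 9.99 and 11.3 in arterioles, 56.0, 75.8 and 89.5 in capillaries, 150, 171 and 214 in venous capillaries and 387, 474 and 570 in veins. The ranges of the 4 zones from arteriole to vein did not overlap. The difference from capillary cells was -3.14 in arterial cells (SE 0.108, adjusted p = 6.03e-18) and 1.82 in venous cells (SE 0.047, adjusted p = 9.74e-28), each in the same direction in 6 of 6 mice.

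Nrp1, the co-receptor best known on arteries, peaked at the capillary among these zones. It was 241, 311 and 333 CPM in large arteries, 164, 198 and 234 in arterioles, 299, 368 and 383 in capillaries, 208, 226 and 251 in venous capillaries and 73.0, 125 and 169 in veins. Large arterial and capillary ranges overlapped, with capillary higher in 5 of 6 mice, while veins had the lowest level. The log2 difference from capillary cells was -0.68 for arterial cells (SE 0.049, adjusted p = 1.87e-11) and -0.76 for venous cells (SE 0.040, adjusted p = 4.75e-18).

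Flt1 and Flt4 also had their highest median in capillaries among these zones, but Flt1 was lowest in large arteries. The arterial contrast sums 482 large arterial with 2364 arteriolar cells, so large arteries were not tested apart. Flt1, the tight-binding VEGF receptor, was 2267, 2954 and 3716 CPM in large arteries, 5168, 5883 and 6406 in arterioles, 5766, 6342 and 6785 in capillaries, 4518, 5066 and 5653 in venous capillaries and 3403, 3585 and 4274 in veins. Venous capillary exceeded vein in 6 of 6 mice. Its difference from capillary cells was -0.20 in arterial cells (SE 0.044, adjusted p = 0.000574) and -0.37 in venous cells (SE 0.031, adjusted p = 3.04e-12). Flt4, the Vegfc receptor, ranged from a median of 48.2 CPM in veins to 81.8 in capillaries and was lower than in capillary cells by -0.30 in arterial cells (SE 0.054, adjusted p = 5.73e-05) and -0.31 in venous cells (SE 0.051, adjusted p = 4.79e-06).

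Tek, the angiopoietin receptor, changed little along the barrier vessels, with its lowest median in veins. Its median was 504 CPM in large arteries, 536 in arterioles, 552 in capillaries, 590 in venous capillaries and 481 in veins, and the ranges of neighbouring zones overlapped. The overlap of venous capillaries (501.4 to 620.6 CPM) and veins (375.5 to 501.9 CPM) was slight. Venous cells in the contrast below sum both zones, so veins were not tested apart. The difference from capillary cells was -0.02 for arterial cells (95% interval -0.11 to 0.07, adjusted p = 0.764), and its 95% interval for venous cells was -0.08 to 0.07 (adjusted p = 0.973). Tie1, its partner, was lowest in capillaries: 279, 292 and 314 CPM in large arteries, 194, 223 and 236 in arterioles, 167, 212 and 241 in capillaries, 208, 250 and 253 in venous capillaries and 205, 255 and 270 in veins. It was 0.20 higher on the log2 scale in arterial cells (SE 0.047, adjusted p = 0.00073) and 0.28 higher in venous cells (SE 0.039, adjusted p = 2.01e-07).

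**Figure D1:**
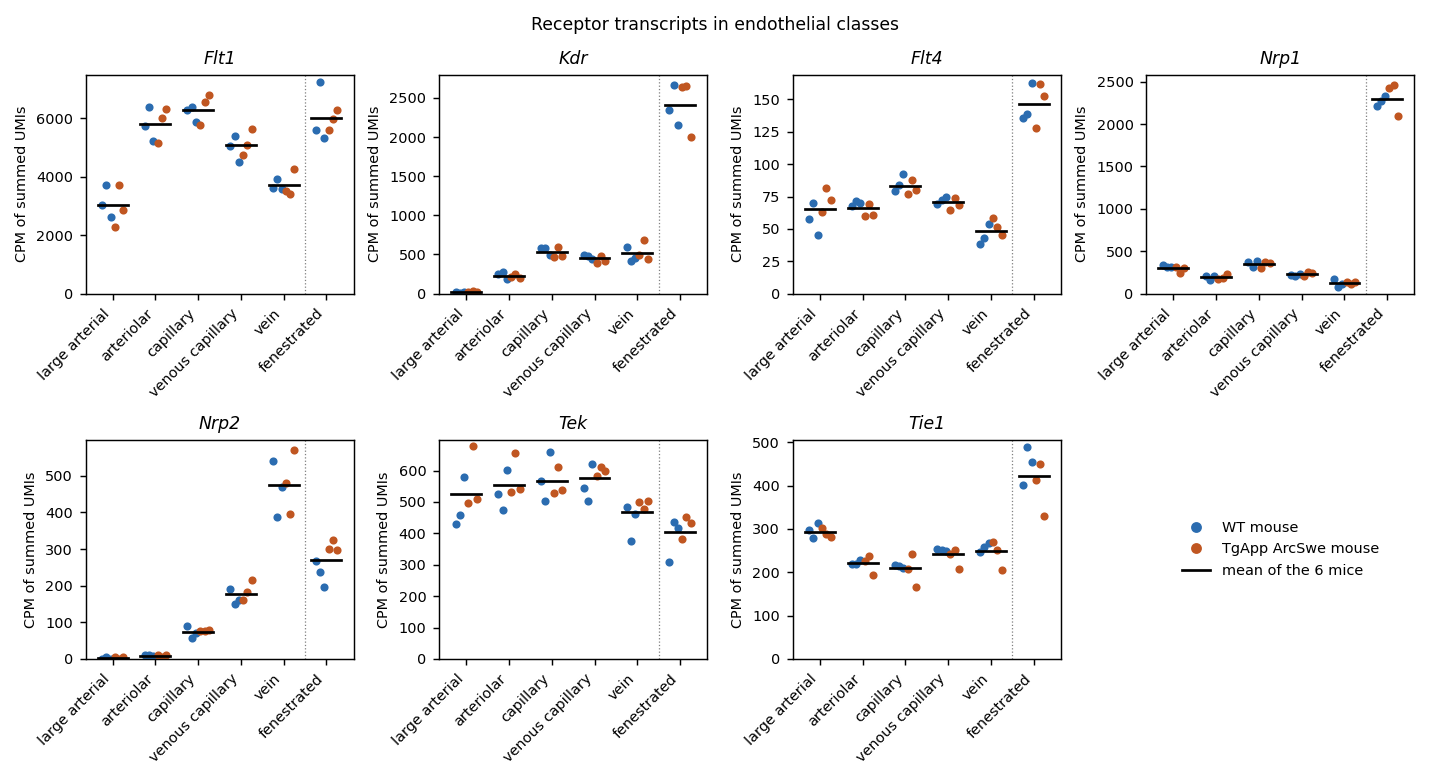
Level in CPM (vertical axis) of the 7 receptor genes, 1 panel each, in large arterial, arteriolar, capillary, venous capillary, vein and fenestrated endothelial cells; each point is a mouse (blue WT, orange TgApp ArcSwe) and the black bar is the mean of 6 mice. Nrp2 climbs from artery to vein, and Kdr is lowest in large arteries with a median of 26.3 CPM. Tek changes little over the barrier zones, and Kdr and Nrp1 are highest in fenestrated cells.

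The ligands were sparse in barrier endothelial cells, and Vegfa and Angpt1 lay mainly on the arterial side. Vegfa was 4.30, 14.4 and 36.9 CPM in large arteries and 5.78, 10.1 and 17.9 in arterioles, against 0.747, 1.16 and 1.62 in capillaries, a fitted log2 difference of 3.28. Angpt1 was 51.5, 62.7 and 146 CPM in large arteries, 10.7, 25.6 and 44.5 in arterioles and 0, 0.406 and 1.24 in capillaries, a fitted difference of 5.96. Arterial values of both genes lay above every capillary value. Capillary cells held 47 UMIs of Vegfa and 21 of Angpt1 over the 6 mice, below the filter on low counts, so both genes entered the contrast only through the arterial side, where they had to differ, and these differences are given as a description with no test. Angpt2, the antagonistic ligand, had its highest median in capillaries and was low along the veins. It was 10.2, 14.1 and 23.5 CPM in capillaries, 0.448, 1.31 and 2.90 in venous capillaries and 0, 1.65 and 5.41 in veins. Venous cells held 34 UMIs of it over the 6 mice, again below the filter, so the fitted venous minus capillary difference of -3.20 is likewise a description. It was lower in arterial than in capillary cells by -0.66 (SE 0.163, adjusted p = 0.00148) in 5 of 6 mice.

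Leaving out the genes that entered only through the class where they are higher, the arterial contrast called 1 member higher (Tie1) and 6 lower of 8, at an adjusted p under 0.05. In that contrast 52.1% of all tested genes were called, 25.8% higher and 26.3% lower, so a call by itself sets no gene apart. The median log2 difference of these 8 members was -0.48 against -0.02 over all genes. The venous contrast called 2 higher (Nrp2 and Tie1) and 4 lower of 7 against 31.9% of all genes (16.2% higher, 15.7% lower), with medians of -0.15 and -0.01. Clusters were built from other genes of the same cells, so these adjusted p values describe how evenly the mice showed a difference between clusters.

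Genes of the wider pathway lists also differed along this axis. The lists name genes by their known roles, but were chosen with earlier results of these data known. In arterial against capillary cells 34 were called higher and 19 lower of 65, without Grb7 and Src. Of all genes 52.1% were called (25.8% higher, 26.3% lower). Of the other ligands, Vegfc, the ligand of Flt4, was higher in arterial than in capillary cells by 4.78 (SE 0.075, adjusted p = 1.36e-24), at 709.5 ± 118 CPM against 26.5 ± 7.40 (SD, n = 6), and Vegfb was lower by -0.99 (SE 0.127, adjusted p = 3.95e-07). Of the receptor partners, 9 of 9 tested passed the test, 7 higher and 2 lower, led by the integrin gene Itgb3 at 2.35 (adjusted p = 3.29e-08), the matrix protein gene Mmrn2 at 1.67 (adjusted p = 9.18e-20) and the receptor phosphatase gene Ptprj at 1.43 (adjusted p = 4.88e-17). Of the VEGF-induced genes, 11 of 13 passed, 10 higher and 1 lower, among them the immediate early nuclear receptors Nr4a3 at 1.59 (adjusted p = 1.44e-11) and Nr4a1 at 1.55 (adjusted p = 3.13e-18), the protease gene Adamts1 at 1.49 (adjusted p = 6.98e-17) and the Notch ligand gene Dll4 at 1.48 (adjusted p = 1.46e-17). The VEGFR2 signalling genes divided evenly, 9 higher and 8 lower of 22 without Src, which entered only through capillary cells, with the kinase gene Prkcb at -2.40 (adjusted p = 1.61e-18) and Prkca at 1.04 (adjusted p = 3.10e-07). The Tie2 signalling genes also split, 5 higher and 4 lower of 10 without Grb7, which entered in the same way, with the adaptor gene Grb14 at -1.60 (adjusted p = 8.22e-19) and the transcription factor gene Foxo3 at -0.72 (adjusted p = 5.44e-08). Among regulators of Vegfa, 5 of 8 passed, with the hypoxia factor gene Epas1 higher by 0.94 (adjusted p = 1.84e-15) and Hif1a lower by -0.93 (adjusted p = 6.87e-14).

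In venous against capillary cells 38 of 65 tested pathway genes passed, 23 higher and 15 lower, against 31.9% of all genes (16.2% higher, 15.7% lower). Ppargc1a, which entered only through capillary cells, is not counted. Vegfc was again higher, by 1.30 (SE 0.086, adjusted p = 2.01e-15), and Vegfd by 0.52 (SE 0.087, adjusted p = 6.49e-06). Dll4 was lower by -1.69 (adjusted p = 1.85e-20) while the other leading VEGF-induced genes, Dusp5 at 0.81 (adjusted p = 3.59e-05) and Adamts9 at 0.75 (adjusted p = 3.49e-06), were higher. Of the receptor partners 6 of 8 passed, with Clec14a at 0.75 (adjusted p = 1.45e-16), Ptprj at 0.74 (adjusted p = 7.24e-17) and the perlecan gene Hspg2 at -0.60 (adjusted p = 7.36e-13). Of the remaining lists, VEGFR2 signalling had 6 higher and 5 lower of 23, Tie2 signalling 2 higher and 4 lower of 11, and the regulators of Vegfa 3 called of 7, including Hif1a at 0.39 (adjusted p = 3.85e-10) and Epas1 at -0.26 (adjusted p = 1.94e-08).

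Fenestrated endothelial cells carried the highest level of Kdr and Nrp1. Kdr was 2005, 2490 and 2665 CPM there, every mouse above its highest level in any barrier zone, a log2 difference of 2.21 from capillary cells (SE 0.077, adjusted p = 1.09e-16). Nrp1 was 2095, 2301 and 2464 CPM, a difference of 2.75 (SE 0.083, adjusted p = 6.40e-18). Nrp2 was 196, 281 and 324 CPM, between venous capillary and vein in 6 of 6 mice, and 1.90 above capillary cells (SE 0.092, adjusted p = 4.33e-14). Flt4 was 128, 146 and 163 CPM, 0.84 higher (SE 0.081, adjusted p = 6.97e-09). Flt1 was the VEGF receptor that did not pass the test: 5318, 5794 and 7254 CPM, with a difference of -0.03 (95% interval -0.15 to 0.09, adjusted p = 0.688).

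The angiopoietin receptors parted in these cells. Tie1 was 330, 431 and 489 CPM, above its highest level in any barrier zone and 1.05 above capillary cells (SE 0.076, adjusted p = 5.17e-11), whereas Tek was 309, 425 and 451 CPM, lower by -0.45 (SE 0.087, adjusted p = 0.000178). Among the ligands, Vegfa was 10.5, 23.5 and 35.8 CPM with a fitted difference of 4.22 from capillary cells, which is not counted as a test since the gene entered only through the fenestrated side, and Angpt2 was 17.9, 20.7 and 46.8 CPM and 0.86 higher (SE 0.229, adjusted p = 0.00389). Angpt1 was represented by 1 UMI and was not tested. Without Vegfa, 6 members were called higher and 1 lower of 8, against 42.6% of all genes (21.5% higher and 21.0% lower), and the median of these 8 was 0.96 against -0.04. Erythroid genes were also higher in fenestrated cells, 4 of 4 tested with a median of 4.29. The summed level of 7 astrocyte markers was 128 to 192 CPM in fenestrated cells and 24.9 to 46.9 CPM in capillary cells, although the defining markers Aqp4, Gfap and Gjb6 were at 0 in fenestrated cells and 1 marker alone passed the filter. The part of either list in these results, Vegfa among them, was not tested.

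Of the pathway genes, 26 were called higher and 11 lower of 57, without 8 that entered only through capillary cells. Of all genes 42.6% were called in this contrast (21.5% higher, 21.0% lower). The receptor partners again leaned upward, 6 higher and 1 lower of 9: Itgb3 at 3.61 (adjusted p = 4.57e-10), Hspg2 at 2.85 (adjusted p = 2.15e-18), Clec14a at 2.61 (adjusted p = 1.14e-15) and, in the other direction, Ptprj at -2.64 (adjusted p = 9.12e-12). The VEGF-induced list had 8 higher and 1 lower of 13, led by the homeobox gene Hlx at 3.46 (adjusted p = 4.35e-15), Adamts9 at 3.11 (adjusted p = 8.53e-17) and Nr4a3 at 2.07 (adjusted p = 1.54e-08). Tie2 signalling went the opposite way, with 2 higher and 5 lower of 10, among them Grb14 at -4.20 (adjusted p = 3.56e-16) and the flow-responsive transcription factor gene Klf2 at -0.71 (adjusted p = 1.29e-07). VEGFR2 signalling had 9 higher and 3 lower of 20, with the kinase gene Fyn at 1.23 (adjusted p = 2.66e-11) and the nitric oxide synthase gene Nos3 at -1.13 (adjusted p = 1.16e-10). The other VEGF ligands Vegfb, Vegfc and Vegfd all entered through capillary cells only and are not counted. Of the regulators of Vegfa, Epas1 was higher by 0.35 (adjusted p = 0.000193) and Hif1a lower by -0.40 (adjusted p = 0.00157).

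**Figure D2:**
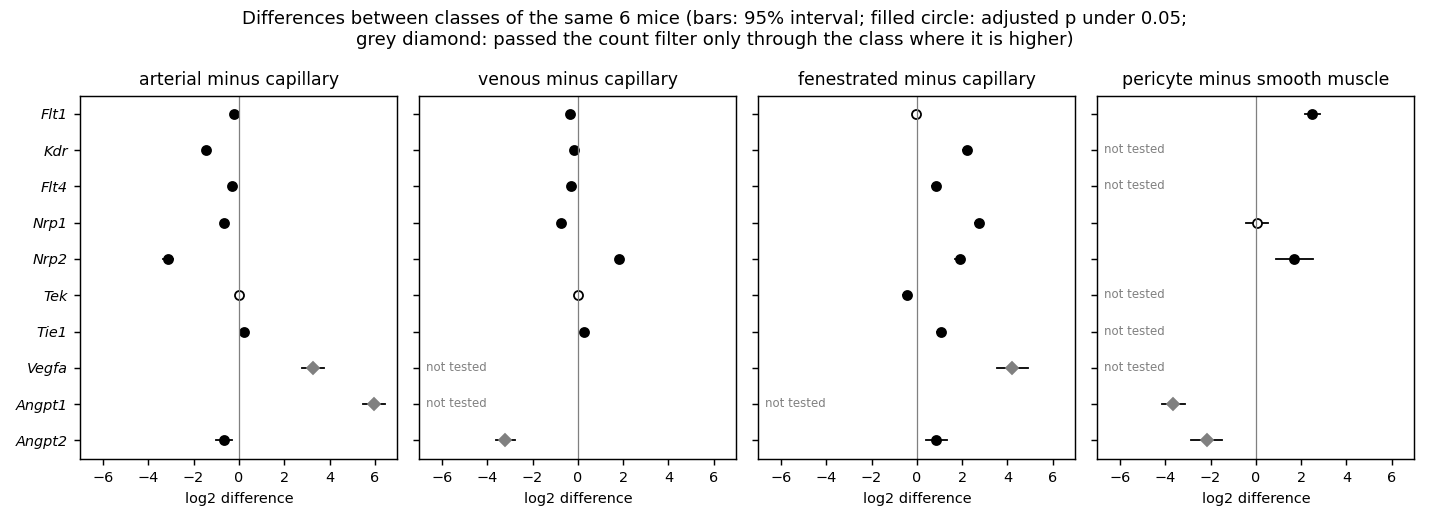
Log2 difference between cell classes (horizontal axis) of the 10 genes for arterial, venous and fenestrated against capillary endothelial cells and for pericytes against smooth muscle cells; bars are 95% intervals over mice, filled circles have an adjusted p under 0.05, grey diamonds are genes that passed the count filter only through the class where they are higher, and genes under the filter are marked as not tested. Nrp2 lies at -3.14 in the arterial and 1.82 in the venous contrast, and Tek lies near 0 in both.

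The angiopoietins were highest in mural cells and in a small set of endothelial cells. Angpt1 was 167, 184 and 275 CPM in smooth muscle cells and 0, 18.5 and 42.5 in pericytes, where 2 mice had no UMI. The fitted log2 difference of pericytes from smooth muscle cells was -3.64. A cluster of 88 mural cells led by Ccl19 held 214, 456 and 581 CPM, and 26 fibroblasts held a mean of 231 CPM in 5 mice; fibroblasts were below the Ccl19-led cells in 3 of 5 mice. In large arteries Angpt1 stood at 37.6% of its smooth muscle level, while the smooth muscle marker genes stood there at a median of 0.2% and at most 13.2% of theirs. Angpt2 was 35.8, 51.6 and 60.1 CPM in smooth muscle cells and 50.7, 235 and 311 in the Ccl19-led cells, and the fitted difference of pericytes from smooth muscle cells was -2.18. With 18 pericyte UMIs of Angpt1 and 12 of Angpt2, both genes entered this contrast only through smooth muscle, and no test of them is given.

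Angpt2 was highest in 33 endothelial cells whose cluster was led by Kit and Adm along with Apln and Pgf. Its level there was 0, 641 and 1010 CPM, with 129 UMIs in all; the mouse at 0, WT mouse 3, had 1 such cell. Kdr was 513, 737 and 1141 CPM in these cells, above its capillary level in 5 of 6 mice, and Tek was lowest among the endothelial classes at 107, 245 and 376 CPM. Vegfa was highest in 56 astrocytes, at 51.1, 188 and 684 CPM from 44 UMIs, followed by fibroblasts with a mean of 85.8 CPM; astrocytes were above fibroblasts in 3 of 5 mice, so that order was not fixed. Choroid plexus epithelium held a mean of 35.2 CPM.

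**Figure D3:**
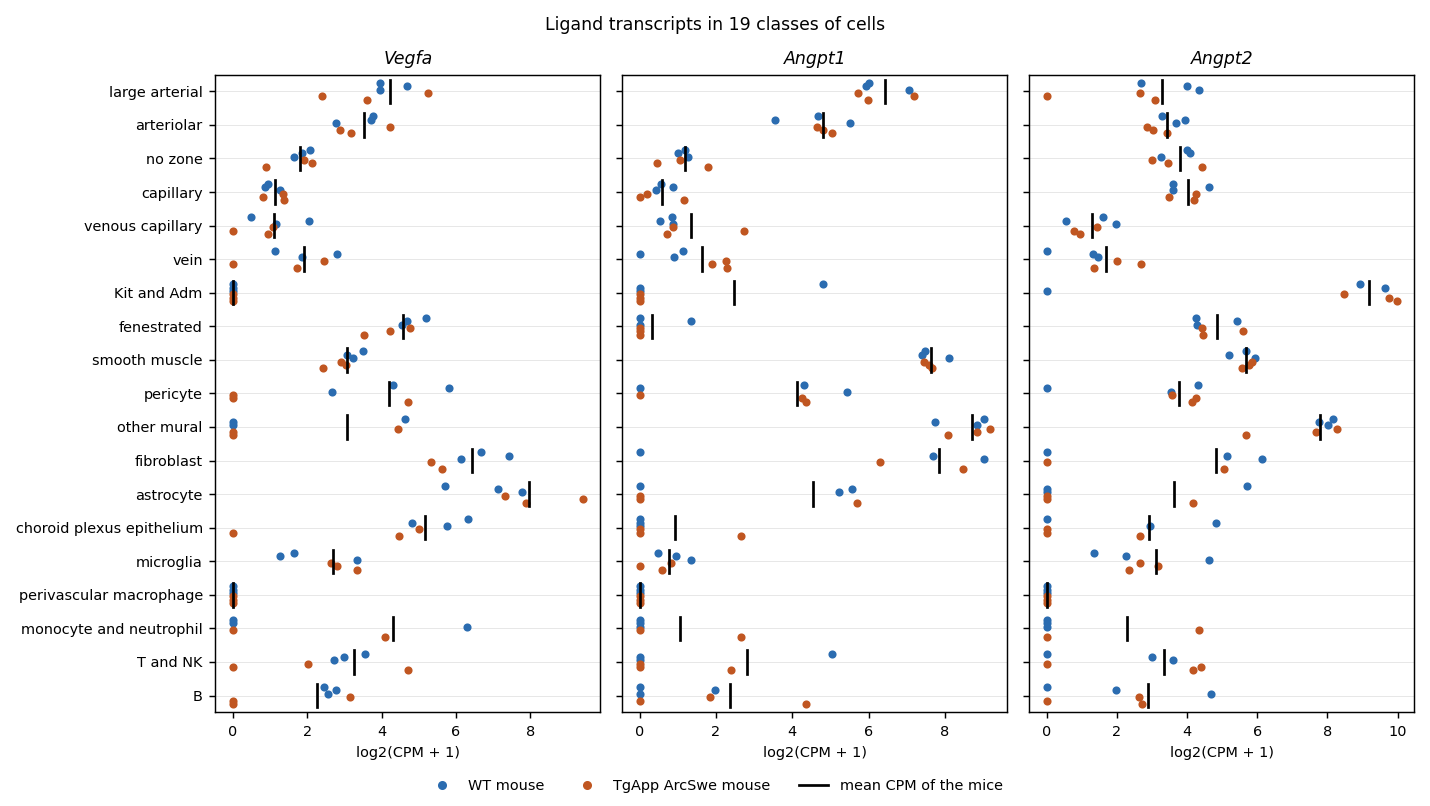
Level of Vegfa, Angpt1 and Angpt2 as log2(CPM + 1) in 19 cell classes; each point is a mouse (blue WT, orange TgApp ArcSwe) and the black line marks the mean CPM. Vegfa is highest in astrocytes, Angpt1 in the Ccl19-led mural cells (other mural) and Angpt2 in the cluster led by Kit and Adm.

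Some receptor UMIs were found outside the endothelium, where UMIs of endothelial markers were found as well. The source of these counts was not tested. To set a scale, each receptor's level in a class was expressed as a percentage of its barrier endothelial level and placed beside the same percentage for 9 endothelial markers. In microglia the markers stood at 0.850% to 3.61% (median 1.11%). Flt1 at 0.833%, Kdr at 2.99%, Flt4 at 1.15%, Tek at 1.15% and Tie1 at 1.97% lay near or within that range, whereas Nrp1 stood at 42.7% and Nrp2 at 64.8%. Microglial levels were 85.5, 129 and 205 CPM for Nrp1 and 51.4, 73.0 and 115 CPM for Nrp2. With each cell thinned to 1000 UMIs, 12.6% of microglia had an Nrp1 UMI and 7.45% an Nrp2 UMI (27.6% and 17.6% before thinning), against 7.84% and 0.509% of T and NK cells (19.8% and 1.16%); median depths were 1868 and 3510 UMIs, and 619 microglia and 27 T and NK cells were too shallow to thin.

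In perivascular macrophages, 47 cells, Nrp1 was at 186% and Nrp2 at 85.6% of the barrier level, with 76 and 14 UMIs, against 0.738% to 11.1% for the markers. T and NK cells held endothelial markers at 12.8% to 28.3% of the barrier level, and Flt1 at 16.7% lay inside that range while Nrp1 at 35.7% lay above it and Nrp2 at 5.40% below. In smooth muscle cells the marker median was 0.947% but a single marker reached 30.8%; Nrp1 stood at 17.6% and Nrp2 at 6.46% there. Pericytes had markers at 1.31% to 55.9% (median 2.94%), with Flt1 at 4.80%, Nrp1 at 22.8% and Nrp2 at 26.5%. In both mural classes the neuropilins thus lay above the marker median and inside the marker range.

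Between the mural classes, Flt1 was 131, 250 and 330 CPM in pericytes and 23.6, 27.7 and 55.2 in smooth muscle cells, a difference of 2.49 (SE 0.166, adjusted p = 4.62e-26), and Nrp2 was 9.47, 30.4 and 55.4 against 4.13, 5.73 and 12.1, a difference of 1.70 (SE 0.415, adjusted p = 0.000384). Nrp1 differed by 0.05 (95% interval -0.42 to 0.53, adjusted p = 0.897). Without Angpt1 and Angpt2, 2 of 3 members were called, both higher, against 38.1% of all genes (16.1% higher, 22.0% lower). Endothelial markers moved with Flt1 and Nrp2: 6 of 6 tested were higher in pericytes, by 0.52 to 3.90, and their summed level was 628 to 1277 CPM in pericytes and 282 to 456 in smooth muscle cells; their part in these differences was not tested. Of the pathway genes, 17 of 56 entered only through smooth muscle, and of the other 39, 15 were called higher and 6 lower. Among the 17 was the placental growth factor gene Pgf, which stood at 139.5 ± 9.79 CPM in smooth muscle cells and 11.5 ± 8.44 in pericytes (SD, n = 6). The VEGF-induced Nr4a1, counted in both classes, was lower in pericytes by -3.31 (adjusted p = 3.90e-36). By list, the receptor partners had 2 higher and 1 lower of 5, VEGFR2 signalling 10 higher and 1 lower of 17, VEGF-induced genes 2 higher and 1 lower of 5, Tie2 signalling 1 higher and 2 lower of 8 and the regulators of Vegfa 0 higher and 1 lower of 4.

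**Figure D4:**
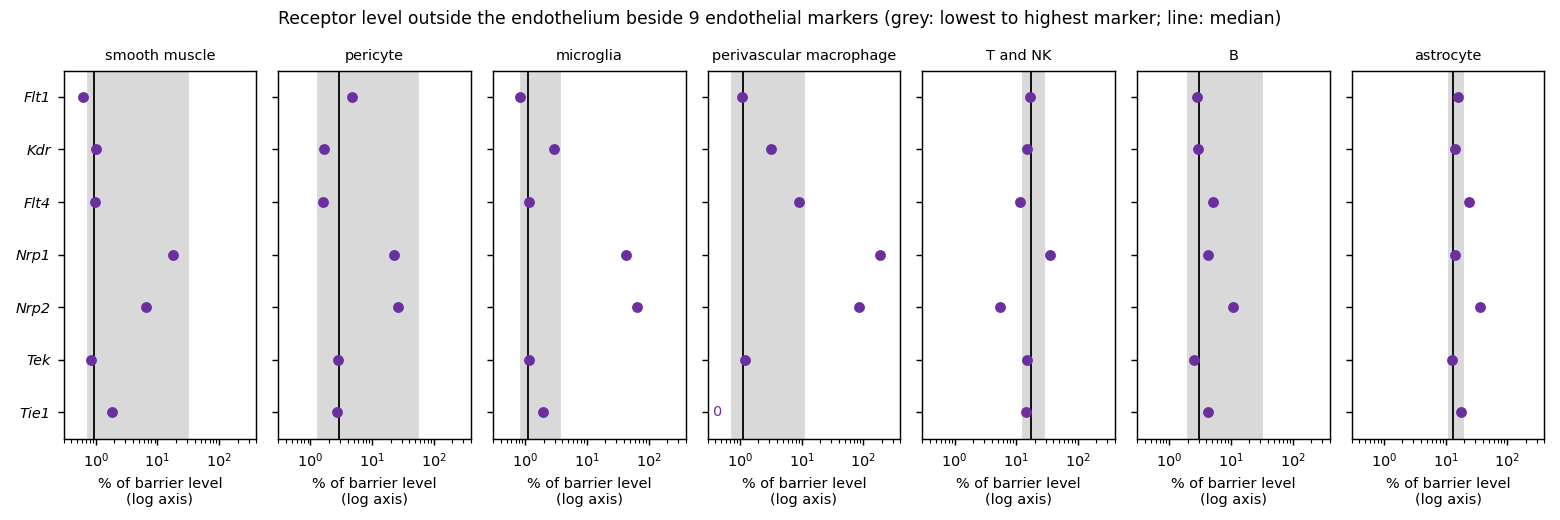
Level of each receptor in 7 classes outside the endothelium as a percentage of its barrier endothelial level (log axis); the grey band spans the 9 endothelial markers in the same class and the line is their median. Nrp1 and Nrp2 stand far above the band in microglia, at 42.7% and 64.8%, while Flt1, Kdr, Flt4, Tek and Tie1 lie at or near it.

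The comparison of TgApp ArcSwe with WT mice asked whether an amyloid-laden vasculature alters this signalling system. No member passed the test in any class. In barrier endothelial cells Flt1 was 5624, 6006 and 5141 CPM in WT mice and 5089, 5924 and 6094 in TgApp ArcSwe mice, a log2 difference of 0.05 (95% interval -0.28 to 0.39). Kdr was 485, 483 and 394 against 389, 503 and 386 CPM, a difference of -0.07 (-0.41 to 0.28). Tek was 544, 489 and 618 against 537, 615 and 546 CPM, and Tie1 was 230, 226 and 231 against 228, 245 and 188 CPM. The genotypes overlapped for each of these 4 receptors. For Flt4, Nrp1, Nrp2, Tek and Tie1 the differences in these cells ran from -0.03 to 0.13, and no interval reached beyond -0.29 or 0.46. The ligands were less well bounded, Vegfa at 0.17 (-0.81 to 1.15), Angpt1 at 0.14 (-0.81 to 1.09) and Angpt2 at -0.15 (-0.81 to 0.51).

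Over 9 classes, 71 tests of members were possible: 10 in barrier and 10 in arterial cells, 8 in capillary, 7 in venous, 9 in fenestrated, 9 in mural cells of all kinds, 9 in smooth muscle, 8 in microglia and 1, for Flt1, in pericytes. Of these, 45 were higher and 26 lower in TgApp ArcSwe mice; edgeR called 0 and DESeq2 called 0, and 4 had an unadjusted p under 0.05 by edgeR. Of all genes tested, edgeR called 0% in barrier, capillary, venous, fenestrated, mural, pericyte and smooth muscle cells, 0.00953% in arterial cells and 0.141% in microglia. The pathway genes likewise held 0 calls by edgeR in each of the 9 classes, with 0 of 66 in arterial cells to 9 of 55 in microglia at an unadjusted p under 0.05. Of all genes, the share at that level was 3.52% in arterial cells and 8.53% in microglia, and 2.71% to 4.85% in the other classes. In arterial cells Angpt2 differed most among the members, by -0.64 (95% interval -1.29 to 0.01). Whether the genotype effect differed between arterial, capillary and venous cells was tested as an interaction; 0 of the 10 members were called (smallest unadjusted p, Tek at 0.0602 and Angpt2 at 0.0650, adjusted p = 0.899), against 0.102% of all genes.

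The 4 values with an unadjusted p under 0.05 all belonged to Nrp2, and in each the genotypes did not overlap. In mural cells Nrp2 was 7.20, 5.75 and 7.82 CPM in WT and 13.8, 15.6 and 11.4 in TgApp ArcSwe mice, a log2 difference of 0.95 (SE 0.240, edgeR adjusted p = 1.00). In smooth muscle cells, which form most of the mural cells, it was 4.95, 4.13 and 5.57 against 12.1, 5.88 and 8.35 CPM, a difference of 0.90 (SE 0.332, adjusted p = 1.00). The mural Nrp2 values rest on 20, 13 and 27 UMIs in WT and 42, 26 and 54 in TgApp ArcSwe mice. Those of smooth muscle cells rest on 13, 9 and 18 against 35, 9 and 36 UMIs. In microglia Nrp2 was 51.4, 62.5 and 66.7 against 96.4, 79.3 and 115 CPM, a difference of 0.87 (SE 0.245, adjusted p = 0.273). In fenestrated cells it was 266, 239 and 196 against 299, 324 and 297 CPM, a difference of 0.43 (SE 0.175, adjusted p = 0.998). In barrier endothelial cells the genotypes overlapped, at 123, 84.4 and 107 against 112, 98.2 and 126 CPM, with a difference of 0.13 (95% interval -0.19 to 0.46).

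Vegfa was the other tested member whose genotypes did not overlap. In mural cells it was 10.8, 8.40 and 8.11 CPM in WT against 6.58, 6.61 and 5.92 in TgApp ArcSwe mice (log2 difference -0.51, adjusted p = 1.00), and in smooth muscle cells the difference was -0.55 (adjusted p = 1.00). The mural Vegfa values rest on 30, 19 and 28 UMIs in WT and 20, 11 and 28 in TgApp ArcSwe mice. In all, genotypes did not overlap in 6 of 71 member tests, and also for Angpt1 in venous cells, which was under the count filter there with 31 UMIs. Of all genes, the genotypes did not overlap for 9.31% in barrier, 8.96% in arterial, 10.4% in capillary, 9.30% in venous, 9.51% in fenestrated, 9.48% in mural, 8.07% in pericyte and 9.83% in smooth muscle sums and for 17.7% in microglia. By class the members counted 2 of 9 in mural, 2 of 9 in smooth muscle, 1 of 9 in fenestrated and 1 of 8 in microglial sums, and 0 in the other classes. The mural and smooth muscle counts lay above the share of all genes, but they concern the same 2 genes in overlapping cells. Barrier sums likewise hold the arterial, capillary and venous cells, so the pooled count is not set against these shares.

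Marker genes of other cells also differed between the genotypes in these classes, none of them called. All 9 endothelial markers were higher in TgApp ArcSwe mice in mural cells (median log2 difference 0.49), in smooth muscle cells (0.51) and in microglia (0.78), and 7 of 9 in fenestrated cells (0.10). In microglia 7 of 8 tested members were likewise higher, with a median of 0.79 against -0.04 over all genes and intervals that, apart from Nrp2, all included 0. The summed level of the endothelial markers in smooth muscle cells was 282 to 347 CPM in WT and 302 to 456 in TgApp ArcSwe mice, and in microglia 89.6 to 331 and 168 to 378 CPM, so the genotypes overlapped in both. Nrp2 was higher in pericytes than in smooth muscle cells, and pericyte markers summed to 979 to 1058 CPM in smooth muscle cells of WT mice and 1089 to 1489 CPM in those of TgApp ArcSwe mice, without overlap, and 5 of 6 were higher (median 0.46). In all mural cells they summed to 1658 to 2199 and 1839 to 2994 CPM. Microglial markers were higher in smooth muscle cells too, 8 of 8 with a median of 0.55. In fenestrated cells 8 of 8 tested venous markers were higher (median 0.60), as were 4 of 4 erythroid genes (2.87). The part of these lists in the Nrp2 values was not tested. As an alternative, cells of these classes with 2 or more summed UMIs of Cldn5, Ly6c1 and Itm2a were left out. The Nrp2 difference was then 1.02 in mural cells, 1.01 in smooth muscle cells and 0.83 in microglia, close to the values with them. Cells with fewer such UMIs stayed in, whatever other endothelial genes they held. The summed microglial markers in microglia were 13000 to 14920 CPM in WT and 10132 to 11390 CPM in TgApp ArcSwe mice, and the part of this in the microglial Nrp2 values was not tested.

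**Figure D5:**
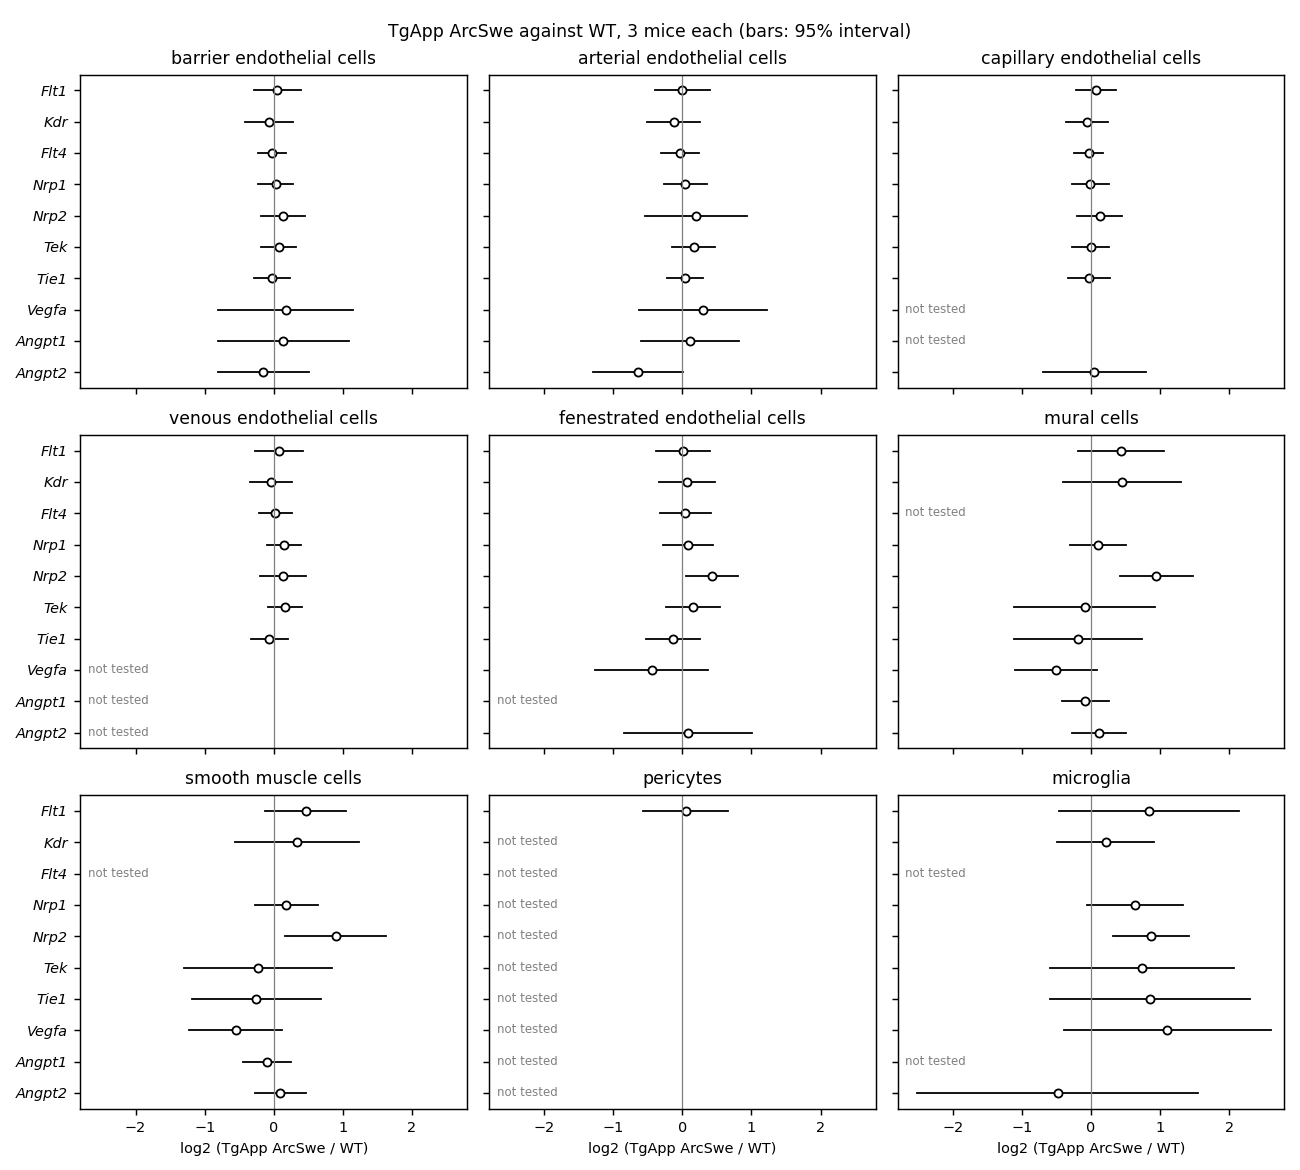
Log2 difference between TgApp ArcSwe and WT mice (3 each) of the 10 genes in 9 cell classes, with 95% intervals. The receptors lie close to 0 with narrow intervals in barrier endothelial cells. Nrp2 is above 0 in every class where it was tested, and its interval leaves out 0 in fenestrated, mural, smooth muscle and microglial cells. No gene has an adjusted p under 0.05.

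By Pearson's r of mean log2(CPM + 1) over the 19 classes, the genes most like each member were sought among 14186 genes. The classes share mice and libraries, so r is a description. Tek came closest to Ushbp1 (r = 0.977), Ptprb (0.976) and Thsd1 (0.971), and Tie1 to Mmrn2 (0.982), Arhgef15 (0.978) and Sema7a (0.978). Arhgef15 (0.983), Zfp366 (0.972) and Sema7a (0.970) were closest to Flt1, and Cdh5 (0.981), Podxl (0.979) and Egfl7 (0.977) to Flt4. For Kdr these were Gm32688 (0.954), Sh3tc2 (0.942) and Proser2 (0.937). The neuropilins had looser matches, Avil (0.827) for Nrp1 and Rgl1 (0.740) for Nrp2, and so did the ligands, with Dbt (0.836) for Vegfa, Serping1 (0.894) for Angpt1 and Lemd2 (0.797) for Angpt2.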

How the data were processed

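Each library was aligned by the authors with Cell Ranger 7.0.0 to mm10, with mouse Clec7a and human NOTCH3 sequence added, and deposited as whole-number UMI counts per gene and cell, not normalized. Cells with 500 to 4500 genes and under 10% mitochondrial counts were kept, as in the study. Clustering (2000 variable genes, 30 principal components, 20 neighbours, Leiden resolution 1; Python 3.11.15, scikit-learn 1.9.0, leidenalg 0.10.2) left out the 10 members and 75 pathway genes. Clusters were named from marker lists by thresholds set after the data were seen; 2590 cells in clusters with markers of several classes and 2172 in unnamed clusters were left out, and no doublet caller was run. As in the study, endothelial cells with a Cx3cr1 or Aif1 UMI were removed (5447 of 29665).

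Counts were summed per mouse and class and tested with edgeR 4.0.16 (quasi-likelihood, TMM, filterByExpr, Benjamini-Hochberg adjustment over all genes; R 4.3.3), after ribosomal, mitochondrial, pseudogene and Rik genes were removed as in the study. A class needed 10 cells per mouse, which perivascular macrophages did not reach, so they have levels but no test. Zone contrasts used the mouse as a block. Genes that passed the count filter of a zone contrast only through the class where they were higher are given without a test and left out of its counts. All p-values are two-sided, and with 3 mice against 3 each reflects the spread between single libraries. Intervals are 95% from the fitted SE. Alternatives were DESeq2 1.42.0, RLE scaling, no count filter, a stricter cell filter (1000 genes, 5% mitochondrial), resolution 2, a replicate block and leaving out each mouse. The scripts were tested on simulated data.

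Mice carry replicate numbers 1 to 3 in both genotypes. In barrier endothelial cells the same-numbered mice deviated together (correlations of 0.104, 0.133 and 0.332 over genes), the only class in which every pair exceeded 0.1. There WT mouse 1 and TgApp ArcSwe mouse 2, of different numbers, correlated at 0.223. The mice numbered 3 correlated at 0.196 to 0.334 in arterial, capillary, venous, fenestrated, mural and smooth muscle sums. In those classes pairs 1 and 2 reached 0.056 to 0.156. In pericytes and microglia the mice numbered 3 stood at -0.034 and -0.043. These 2 libraries had the lowest median UMIs per kept cell (3271.5 in WT, 2922 in TgApp ArcSwe). The part of depth was not tested, and nothing in the labels says what a number marks.

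The rule named all 10 members in every class, the pathway genes past the threshold and the 3 genes most like each member; because most pathway genes passed in the zone contrasts, the text gives counts and names those with the largest changes, a choice made after their values were seen. The members and lists were chosen with earlier results of these data known.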

Additional observations from a re-analysis of the deposited data

How the results depend on the processing

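For the members, 410 of 414 alternative values of the zone contrasts kept their side of the threshold; 13 changed sign, all of them uncalled values of Tek and Nrp1. These values include genes that entered a contrast only through the class where they are higher. Such genes had to differ, so the count says nothing about their stability. The remaining 4 were no longer called, all without the mouse block: Flt1 (adjusted p = 0.144), Tie1 (0.0783) and Angpt2 (0.0562) in the arterial contrast and Kdr (0.306) in the venous contrast. All 934 alternative values of their genotype effects stayed uncalled, although 95 changed sign. All 40 alternative levels stayed within 1 SD, and the class with the highest mean level was the same for each of the 10 genes. Each gene had an alternative that changed no cell of its highest class, so its level there could not move. A highest mean was not always the highest in each mouse. Tek was higher in venous capillary than in capillary cells in 2 of 6 mice. The genotype effect on Nrp2 ranged from 0.30 to 0.53 on the log2 scale in fenestrated cells, 0.86 to 1.13 in mural cells, 0.60 to 1.07 in smooth muscle cells and 0.65 to 1.01 in microglia, where its adjusted p ran from 0.0799 (without WT mouse 3) to 0.999 and was 0.0889 by DESeq2; with the cells of few UMIs added, an alternative chosen after seeing the data, it was 0.79 (adjusted p = 0.241).

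Counts of genes called over all genes for the genotype effect moved as follows. Without the count filter they were 3 in barrier (0 as reported), 77 in arterial (1), 21 in capillary (0), 111 in venous (0), 41 in fenestrated (0), 88 in mural (0), 3 in pericyte (0), 77 in smooth muscle (0) and 291 in microglial sums (14), and 69 for the interaction (12). With DESeq2 they were 8 in barrier, 9 in arterial, 10 in capillary, 4 in venous, 2 in mural, 1 in smooth muscle and 165 in microglial sums, and 4 for the interaction. With the replicate block, which pairs mice of the same number, they were 8 in arterial, 2 in capillary, 3 in venous, 1 in fenestrated and 0 in barrier sums, and no member was called. The stricter cell filter gave 64 in microglia. Leaving out a mouse gave 1 to 2 in arterial cells, 0 to 1 in fenestrated cells, 2 to 261 in microglia (261 without WT mouse 3, 70 without TgApp ArcSwe mouse 2) and 3 to 18 for the interaction. The venous minus capillary contrast called 3509 genes, 2177 with DESeq2 and 1481 without the mouse block. The cause of these changes was not tested. The planned tests in perivascular macrophages were not run, since too few cells remained per mouse.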
